A study of Homo sapiens with 6 samples.

Results

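The hypoxia-inducible factor (HIF) system and the glycolytic pathway that it controls were examined as a group of 42 genes, listed by function. These were the HIF subunits, the enzymes that sense oxygen, the transporters and enzymes that take glucose to lactate, and further target genes of HIF. Of the 42, 37 had a probe set annotated with exactly 1 gene symbol, out of 18417 genes with such a probe set among the 33297 probe sets of the array. EGLN2 and PGAM1 had only probe sets shared with another gene, and SLC16A1, SLC16A3 and CA9 were not analysed here. Total RNA was measured on Affymetrix HuGene arrays in 2 groups of 3 arrays, untransfected MCF10A cells and MCF10A-SNAI1 cells. MCF10A is a human breast epithelial cell line that grows indefinitely in culture but is not cancerous. The MCF10A-SNAI1 line is MCF10A transfected with pBeta-SNAI1-Flag, in which a CMV enhancer and a chicken beta-actin promoter drive SNAI1, and selected with puromycin. Both lines were grown in mammary epithelial growth medium with cholera toxin, and neither the labels nor the methods name a low-oxygen treatment. The study describes 3 independently reproduced transcriptomes per line. Neither it nor the labels say whether the 3 arrays of a line came from separate cultures. The p-values thus measure only the spread between these arrays, which may be technical. The control line carried no plasmid, so transfection, selection and the history of the line cannot be told apart from SNAI1 itself.

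Under normal oxygen, prolyl hydroxylases of the EGLN family mark the HIF alpha proteins for the ubiquitin ligase that contains VHL, and the proteins are degraded. When oxygen falls, the alpha subunit is stabilized, joins ARNT (HIF-1 beta) and binds hypoxia response elements in genes for glucose uptake, glycolysis, mitophagy and collagen modification. The alpha subunits among the members are encoded by HIF1A and by EPAS1 (HIF-2 alpha), and they share some targets and differ in others. HIF activity is thus controlled largely at the protein level, which an array of RNA does not measure.

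The line labels held up on the array. SNAI1 rose by 4.75 on the log2 scale (limma, adjusted p = 7.06e-08) and CDH1, the epithelial cadherin, differed by -3.97 (adjusted p = 4.47e-07). All log2 fold changes are given as MCF10A-SNAI1 minus MCF10A. Of 7 mammary epithelial markers, 4 were called lower and none higher, with EPCAM at -3.70 and KRT14 at -4.76. KRT8, from the same list, was under the fold threshold but higher at 0.95 (adjusted p = 6.22e-05), and KRT19 differed by -0.19 with overlapping arrays, so some but not all epithelial markers were lower in the MCF10A-SNAI1 line. Of 5 mesenchymal markers, 4 were called higher, namely FN1, CDH2, ZEB1 and ZEB2. The other, VIM, differed by 0.06 with overlapping arrays (limma adjusted p = 0.601). Of 3 measured leukocyte markers, PTPRC was at 3.23 and 3.22 in the lines, among the lowest values of the array, and CD3E differed by -0.16. The third, CD68, a lysosomal protein that is not restricted to leukocytes, rose by 0.99 (adjusted p = 8.86e-05), and its part in the results was not tested. The 3 endothelial markers PECAM1, CDH5 and VWF differed by 0.03 to 0.08. The 6 arrays had medians of 6.04 to 6.09. Values are the deposited log2 values, given as mean ± SD over 3 arrays, and a level of one gene's probe set cannot be set against that of another gene.

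A member was called when its adjusted p from limma was below 0.01 and its change exceeded 2-fold, the thresholds of the study. By this rule 3 of the 37 measured members were called higher (HIF1A, BNIP3L and P4HA1) and 3 were called lower (EPAS1, NDRG1 and ALDOC). Of all 18417 genes, 3.1% were called higher and 2.54% lower, 5.64% in either direction. At an adjusted p below 0.01 with no fold threshold, 7 members were higher and 10 were lower, against 12.1% and 11.2% of all genes (23.2% in either direction). The measured members were bright, and 36 of them, all but FBP1, lay above the median of all probe sets. Among the 11219 genes above that median, 7.59% were called and 33.4% had an adjusted p below 0.01. The members' own shares were 16.2% called and 45.9% with an adjusted p below 0.01, and no test was made of whether they exceed those of other genes. The arrays of the lines did not overlap for 27 members, 13 of them higher and 14 lower, and for 48.3% of all genes. The median log2 fold change was 0.02 over the members and -0.01 over all genes, so the group as a whole had no common direction.

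**Figure D1:**
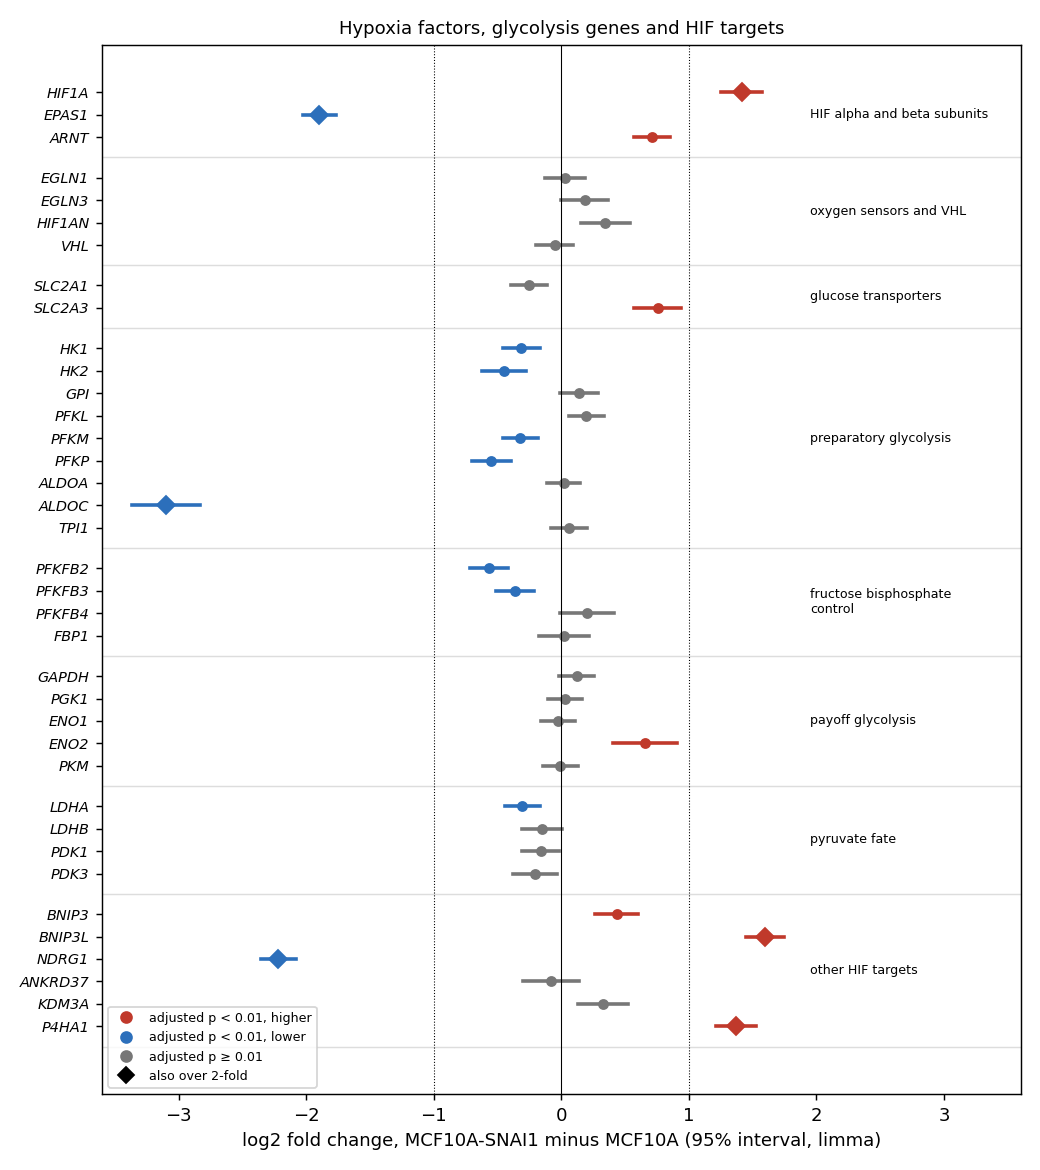
Log2 fold change of each of the 37 measured members (MCF10A-SNAI1 minus MCF10A, x axis) with its 95% interval from limma, grouped by role. Red and blue mark an adjusted p below 0.01, diamonds a change over 2-fold as well, and the dotted lines a 2-fold change. HIF1A and EPAS1 lie on opposite sides, and most glycolytic enzymes lie within the dotted lines.

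Both HIF alpha genes among the members changed, in opposite directions. HIF3A, a further alpha gene outside the member list, differed by -0.16 (adjusted p = 0.156 from limma). HIF1A was at 10.49, 10.61 and 10.52 on the MCF10A arrays and at 11.88, 12.00 and 11.99 on the MCF10A-SNAI1 arrays. It rose 2.67-fold (1.42 on the log2 scale, limma standard error 0.067 and adjusted p = 1.33e-05), and every array of the SNAI1 line lay above every control array. EPAS1 was at 9.81, 9.82 and 9.81 in MCF10A and at 7.92, 7.88 and 7.96 in MCF10A-SNAI1 cells. It fell 3.72-fold (-1.90 on the log2 scale with a standard error of 0.056, limma adjusted p = 1.50e-06), again with no overlap. In bulk RNA, fewer cells with a transcript and less of it per cell cannot be told apart. Within each array the gap between the probe sets of HIF1A and EPAS1 thus shifted by 3.31 on the log2 scale. An exact two-sided permutation test over the 6 arrays gave p = 0.1 for that shift, the smallest that 3 arrays against 3 allow. By the size of its rise HIF1A ranked 297 of 18417 genes, and EPAS1 ranked 151 by the size of its fall. The study's own figures also show HIF1A and EPAS1 as changed, so their presence here is not independent evidence.

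ARNT, the partner that both alpha subunits need to bind DNA, was at 9.10, 9.19 and 9.16 in MCF10A and at 9.82, 9.89 and 9.88 in MCF10A-SNAI1 cells. It was 1.64-fold higher and so under the fold threshold (0.71 on the log2 scale, limma standard error 0.060 and adjusted p = 1.83e-04).

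None of the 4 measured genes of the hydroxylases and VHL had an adjusted p below 0.01. EGLN1, the main prolyl hydroxylase, was at 9.13 ± 0.066 and 9.16 ± 0.057 (SD, n = 3 arrays each), and its arrays overlapped between the lines. Its log2 fold change was 0.03 with a 95% interval from -0.13 to 0.18 (adjusted p = 0.850 from limma). VHL was at 7.83 ± 0.025 and 7.78 ± 0.056, with an interval of the difference from -0.19 to 0.09 (adjusted p = 0.639). EGLN3, a hydroxylase gene that is itself a HIF target, differed by 0.18 (adjusted p = 0.154), and HIF1AN, the asparaginyl hydroxylase FIH that blocks HIF coactivator binding, differed by 0.35 (adjusted p = 0.0204). For both of these the 3 MCF10A-SNAI1 arrays lay above the 3 MCF10A arrays, although neither difference passed the threshold. HIF1AN was below 0.01 in 3 of 15 alternative settings.

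**Figure D2:**
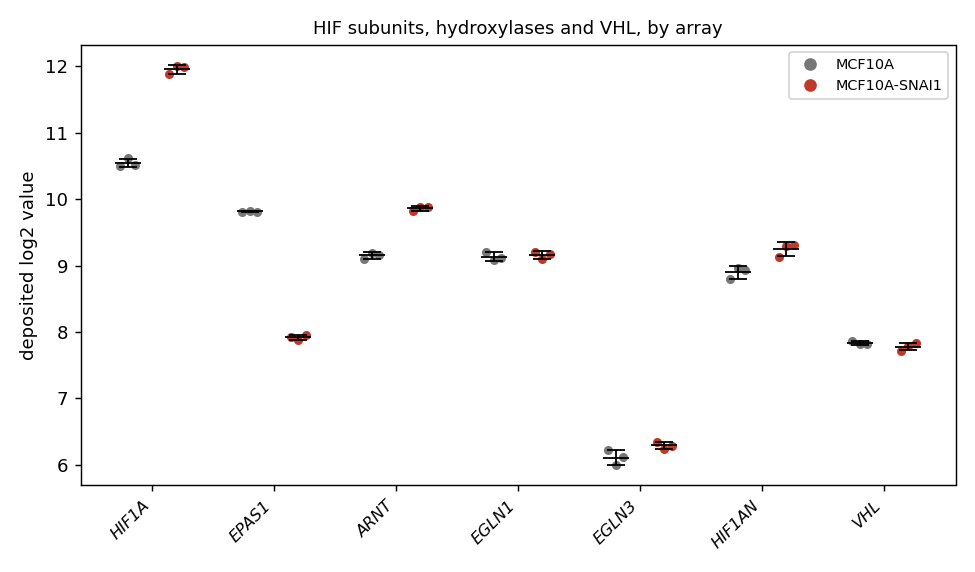
Deposited log2 value (y axis) of the HIF subunit, hydroxylase and VHL genes on each MCF10A (grey) and MCF10A-SNAI1 (red) array, mean and SD (n = 3) drawn in black. HIF1A and ARNT are higher and EPAS1 is lower on all 3 MCF10A-SNAI1 arrays, and the arrays of EGLN1 and VHL overlap.

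Further genes of HIF control were taken from a list of 13, all of them measured. Of these, 2 were called higher and none lower, and another 3 rose and 1 fell under 2-fold. Over all genes 5.64% were called and 23.2% had an adjusted p below 0.01. CITED2, which competes with HIF for the coactivator p300 and is itself induced by HIF, was called higher at a log2 fold change of 2.67 (adjusted p = 4.90e-07 from limma). EP300, which encodes p300, was called higher at 1.62 (adjusted p = 1.09e-05). The study's figures show both genes as well. The list had a median log2 fold change of 0.19.

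Sequences before the transcription start are shown for the 4 called members that the promoter table used here holds, since HIF and SNAI1 are both DNA-binding factors. They are RefSeq sequences of GRCh38.p14, 250 bases up to the annotated start, 5′ to 3′ on the gene's strand. Capitals mark the hypoxia response element cores ACGTG and GCGTG and the Snail-type E-box CAGGTG, each searched on both strands, so that CACGT and CACGC are the reverse of the cores and CACCTG that of the E-box. The palindrome CACGTG is an E-box too and counts as 2 overlapping ACGTG matches. For HIF1A the first of 2 annotated starts is shown.
HIF1A, chr14:61695263-61695512, plus strand: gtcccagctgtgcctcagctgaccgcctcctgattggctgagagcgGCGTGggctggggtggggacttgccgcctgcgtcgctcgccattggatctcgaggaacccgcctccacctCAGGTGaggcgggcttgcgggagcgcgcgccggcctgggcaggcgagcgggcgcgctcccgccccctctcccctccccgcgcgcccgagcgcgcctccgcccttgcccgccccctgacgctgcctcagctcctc
EPAS1, chr2:46297157-46297406, plus strand: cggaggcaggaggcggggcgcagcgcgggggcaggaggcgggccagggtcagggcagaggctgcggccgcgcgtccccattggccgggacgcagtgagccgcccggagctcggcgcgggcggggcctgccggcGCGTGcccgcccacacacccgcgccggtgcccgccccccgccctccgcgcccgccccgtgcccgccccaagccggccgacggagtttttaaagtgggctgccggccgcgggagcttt
P4HA1, chr10:73096867-73097116, minus strand: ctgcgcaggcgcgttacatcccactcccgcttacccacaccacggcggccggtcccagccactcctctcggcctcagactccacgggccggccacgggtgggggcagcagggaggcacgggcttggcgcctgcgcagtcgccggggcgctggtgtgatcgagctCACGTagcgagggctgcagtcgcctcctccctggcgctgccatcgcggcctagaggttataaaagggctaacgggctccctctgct
ALDOC, chr17:28576896-28577145, minus strand: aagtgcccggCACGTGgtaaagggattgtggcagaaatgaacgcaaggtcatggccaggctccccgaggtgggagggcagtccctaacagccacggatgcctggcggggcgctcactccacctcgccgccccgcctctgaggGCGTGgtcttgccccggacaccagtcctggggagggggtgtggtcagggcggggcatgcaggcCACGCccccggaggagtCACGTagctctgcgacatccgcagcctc

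The window of ALDOC held 3 ACGTG and 2 GCGTG matches, that of P4HA1 held 1 ACGTG, that of EPAS1 held 1 GCGTG, and that of HIF1A held 1 GCGTG and 1 CAGGTG. Among 65 windows of the 36 listed members in the table, 36.9% held ACGTG, 32.3% GCGTG and 10.8% CAGGTG, against 18.5%, 32.2% and 17.5% of all 35093 windows. Counted by gene, at least 1 HIF core stood before 4 of the 5 members in the table that were higher at an adjusted p below 0.01, before all 8 that were lower, and before 14 of the 19 that did not pass, the remaining 4 in the table not being measured. A core of either kind stood in 43.2% of all windows and in 58.5% of the members' windows. Genes with several starts have more chances of a match, and no share by gene was computed over all genes. The counts by gene thus cannot be set against the shares of windows. A match describes letters only. In these windows HIF cores thus stood before members of either direction.

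Among the HIF targets outside glycolysis, the mitophagy receptor gene BNIP3L and the collagen prolyl hydroxylase gene P4HA1 rose and NDRG1 fell. BNIP3L was at 8.74, 8.77 and 8.83 in MCF10A and at 10.43, 10.38 and 10.32 in MCF10A-SNAI1 cells, a 3.02-fold rise (1.60 on the log2 scale with a standard error of 0.063, limma adjusted p = 5.41e-06). Its relative BNIP3, which serves the same process, rose 1.35-fold (log2 fold change 0.43, adjusted p = 0.00433), with all MCF10A-SNAI1 arrays above the control arrays. That difference did not hold its adjusted p in 5 of the 6 fits that left out 1 array, where it went as high as 0.0199. The study's figures show BNIP3L among its changed genes.

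P4HA1, a catalytic subunit of the enzyme that hydroxylates prolines of collagen so that the triple helix is stable, was at 9.51, 9.61 and 9.51 in MCF10A. On the MCF10A-SNAI1 arrays it was at 10.86, 11.00 and 10.88, and it rose 2.59-fold (1.37 on the log2 scale, limma standard error 0.067 and adjusted p = 1.49e-05). NDRG1, a stress-responsive gene that hypoxia induces in many cell types, was at 11.03, 11.07 and 11.11 in MCF10A and at 8.83, 8.89 and 8.85 in MCF10A-SNAI1 cells. It fell 4.65-fold (-2.22 on the log2 scale with a standard error of 0.058, limma adjusted p = 9.58e-07), a rank of 107 among all genes by the size of the fall. The SDs of these genes were between 0.03 and 0.07, so the differences were many times the spread between arrays. KDM3A, a histone H3 lysine demethylase gene, differed by 0.33 (adjusted p = 0.0290), and ANKRD37, a HIF target too, by -0.08 with a 95% interval from -0.30 to 0.14 (adjusted p = 0.634). HIF targets therefore included a gene over 4-fold lower beside genes that rose and genes that did not pass the test.

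**Figure D3:**
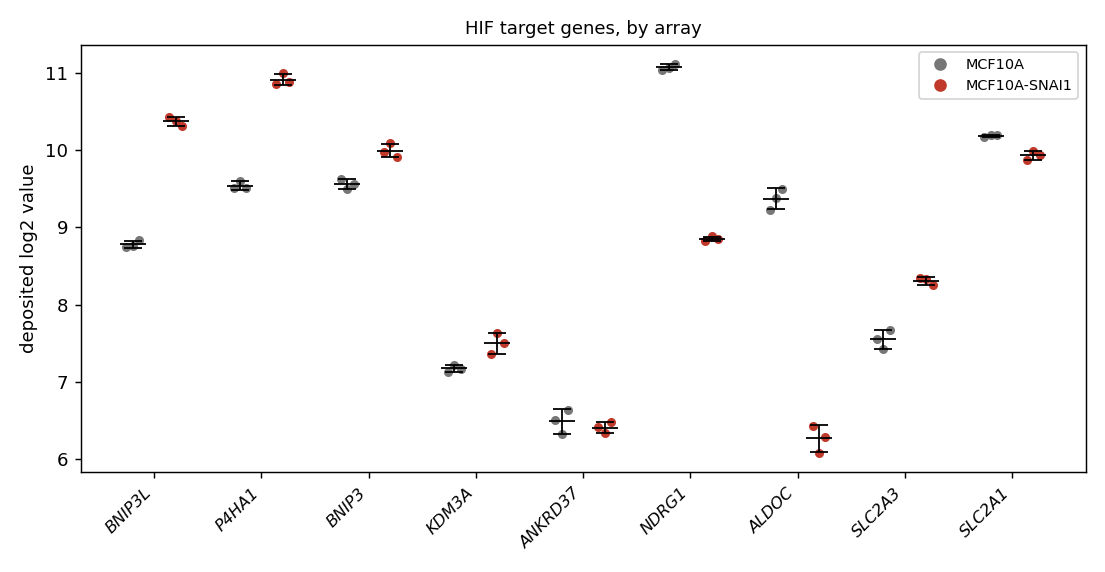
Deposited log2 value (y axis) of HIF target genes on each MCF10A (grey) and MCF10A-SNAI1 (red) array, mean and SD (n = 3) drawn in black. BNIP3L and P4HA1 are higher and NDRG1 and ALDOC lower on all 3 MCF10A-SNAI1 arrays, and ANKRD37 overlaps between the lines.

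Glucose enters these cells through facilitative transporters. SLC2A3 (GLUT3), a high-affinity transporter, was at 7.55, 7.43 and 7.68 in MCF10A and at 8.35, 8.33 and 8.25 in MCF10A-SNAI1 cells. It rose 1.69-fold (0.75 on the log2 scale, limma standard error 0.079 and adjusted p = 5.01e-04). SLC2A1 (GLUT1), the widely expressed transporter and a classical HIF target, had a log2 fold change of -0.25 (95% interval -0.39 to -0.11), with all MCF10A-SNAI1 arrays below the controls but an adjusted p of 0.0199. The gap between the probe sets of SLC2A1 and SLC2A3 shifted by -1.01 between the lines.

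In the preparatory phase of glycolysis, which spends ATP to make triose phosphates, 5 of 9 measured genes were lower at an adjusted p below 0.01 and none was higher, against 11.2% lower of all genes and 33.4% in either direction of those above the median. Of the 5, HK1, HK2 and PFKM lost that adjusted p in most or all fits without 1 array, and only ALDOC exceeded 2-fold. The aldolase gene ALDOC was at 9.23, 9.39 and 9.50 in MCF10A and at 6.44, 6.08 and 6.29 in MCF10A-SNAI1 cells. It fell 8.57-fold, the largest change among the measured members (-3.10 on the log2 scale with a standard error of 0.11, limma adjusted p = 3.70e-06), and ranked 52 of all genes by the size of its fall. ALDOA, which encodes the main aldolase of muscle and many other tissues, was at 10.65 ± 0.022 and 10.67 ± 0.027 (SD, n = 3 arrays each) with a 95% interval of the log2 fold change from -0.11 to 0.15 (adjusted p = 0.877). The change of ALDOC thus lay far outside the interval of ALDOA.

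Of the phosphofructokinase genes, whose products catalyse the committed step, PFKP and PFKM were lower and PFKL did not pass. PFKP, the platelet type, was at 10.27, 10.37 and 10.33 in MCF10A and at 9.71, 9.83 and 9.80 in MCF10A-SNAI1 cells, a 1.46-fold fall (-0.55 on the log2 scale, limma standard error 0.065 and adjusted p = 8.78e-04). PFKM, the muscle type, was 1.25-fold lower (log2 fold change -0.32, adjusted p = 0.00638), and PFKL, the liver type, differed by 0.20 (adjusted p = 0.0470). The gap between the probe sets of PFKL and PFKP shifted by 0.75, with no overlap between the arrays of the lines. The exact two-sided permutation test gave p = 0.1 for that shift (adjusted p = 0.115 over the pairs), the smallest possible here. The hexokinase genes, whose enzymes trap glucose in the cell, were both lower, HK1 at -0.31 (adjusted p = 0.00886) and HK2, a HIF target, at -0.45 (adjusted p = 0.00384). The isomerase genes GPI and TPI1 differed by 0.14 and 0.06 (adjusted p = 0.172 and 0.590) and did not pass, and the 2 probe sets of TPI1 gave -0.01 and 0.06.

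Fructose 2,6-bisphosphate, made and removed by the PFKFB enzymes, is the main activator of phosphofructokinase. PFKFB2 was at 7.51, 7.59 and 7.60 in MCF10A and at 6.99, 7.06 and 6.95 in MCF10A-SNAI1 cells. It fell 1.48-fold (-0.57 on the log2 scale with a standard error of 0.064, limma adjusted p = 7.05e-04). PFKFB3 was lower at -0.36 (adjusted p = 0.00525), whereas PFKFB4 differed by 0.20 with overlapping arrays (adjusted p = 0.17). FBP1, the gluconeogenic phosphatase that opposes phosphofructokinase, was at 4.48 ± 0.14 and 4.5 ± 0.010, the only measured member below the median of all probe sets (adjusted p = 0.907). Whether that level is background was not tested.

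The payoff phase of glycolysis, which yields ATP and pyruvate, differed little between the lines. GAPDH, PGK1, ENO1 and PKM differed by 0.12, 0.03, -0.03 and -0.01 on the log2 scale (limma, adjusted p = 0.210, 0.812, 0.826 and 0.962). Their 95% intervals lay between -0.16 and 0.26 in all. PGK1, with which the study scaled its quantitative PCR beside 18S rRNA, had an interval from -0.11 to 0.16. GAPDH, ENO1 and PKM lay at percentiles 99.96, 99.95 and 99.3 of all probe sets, and how far the array compresses changes of such bright signals was not tested. The neuronal enolase gene ENO2 was at 6.46, 6.18 and 6.48 in MCF10A and at 7.12, 7.08 and 6.89 in MCF10A-SNAI1 cells. It was 1.58-fold higher (0.66 on the log2 scale, limma standard error 0.11 and adjusted p = 0.00376), while ENO1 did not pass.

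At the fate of pyruvate, LDHA, the lactate dehydrogenase subunit that HIF induces, was 1.24-fold lower, from 13.02 ± 0.024 to 12.71 ± 0.043 (SD, n = 3 arrays each, log2 fold change -0.31, adjusted p = 0.00788 from limma). LDHB, the other subunit of the tetramer, differed by -0.15 (adjusted p = 0.176). The kinase genes PDK1 and PDK3, whose products inactivate pyruvate dehydrogenase and so keep pyruvate from becoming acetyl-CoA, differed by -0.16 and -0.21 (adjusted p = 0.116 and 0.0937). For all 4 of these genes every MCF10A-SNAI1 array lay below every MCF10A array, and 48.3% of all genes had arrays that did not overlap in either direction.

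**Figure D4:**
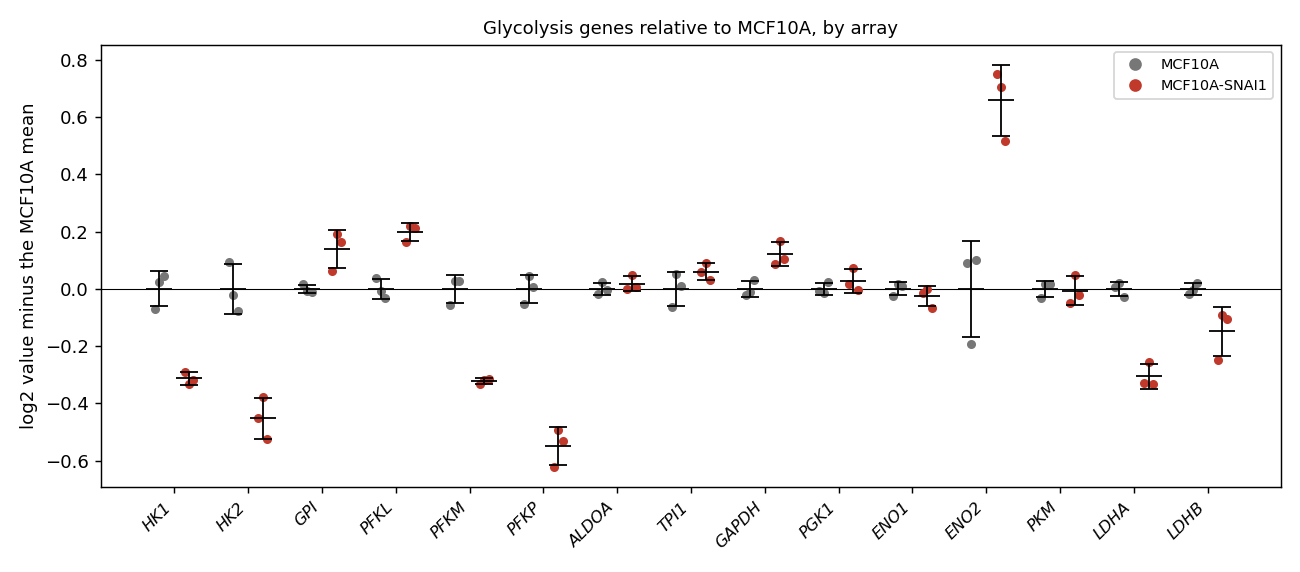
Glycolysis genes in pathway order, as the log2 value of each array minus the mean of the MCF10A arrays (y axis), for MCF10A (grey) and MCF10A-SNAI1 (red), mean and SD (n = 3) drawn in black. ALDOC, at -3.10, is left out so that the small changes can be seen. HK1, HK2, PFKM, PFKP and LDHA lie below 0 and ENO2 above 0 on all 3 MCF10A-SNAI1 arrays.

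The small changes rested on the number of arrays more than the large ones did. All 6 called members were called in each of the 15 alternative settings. Of the 17 members with an adjusted p below 0.01, 10 stayed below it in all 15 settings, namely the 6 called members with ARNT, SLC2A3, PFKP and PFKFB2. The other 7 were HK1, HK2, PFKM, PFKFB3, ENO2, LDHA and BNIP3. HK1, PFKM, PFKFB3 and LDHA were above 0.01 whichever array was left out, with adjusted p values of up to 0.0394, 0.0300, 0.0258 and 0.0368 over all settings. HK2 stayed below 0.01 in 2 and ENO2 in 3 of the 6 fits without 1 array, and none of the 7 changed sign.

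Of 15 pairs of related members, 13 had within-array gaps that did not overlap between the lines (exact two-sided permutation p = 0.1 each, adjusted p = 0.115 over the pairs). No such share was computed for other pairs of genes, and the arrays of 48.3% of all single genes did not overlap. The pairs with overlapping gaps were HK1 with HK2, which shifted by 0.14, and PDK1 with PDK3, which shifted by 0.05. Beside HIF1A with EPAS1, the widest shifts were those of ALDOA against ALDOC at 3.12 and of BNIP3 against BNIP3L at -1.16. No pair could pass at this number of arrays, and the pairs were chosen with earlier results known.

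Further genes of the pathways were taken from lists chosen with earlier results of these data known. Of 37 measured hypoxia targets, 7 were called higher and 1 lower, and another 4 rose and 3 fell under 2-fold, with a median log2 fold change of 0.24. Over all genes the called shares were 3.1% higher and 2.54% lower, and no test set the list against them. LOX, the enzyme that cross-links collagen, had the largest rise at 2.88 (adjusted p = 4.04e-06 from limma), followed by the nutrient-sensing GTPase gene RRAGD at 2.32, the lipoprotein receptor gene VLDLR at 1.79 and the secreted glycoprotein gene STC2 at 1.43. The other 3 called higher lay between 1.08 and 1.40. CA12, a carbonic anhydrase of the cell surface, was the gene called lower, at -2.48 (adjusted p = 6.28e-07). Called genes of this list thus stood on both sides, 7 higher and 1 lower. As the list was chosen with results known, no conclusion is drawn from that imbalance.

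Of 22 measured genes of mitochondrial pyruvate entry and the citric acid cycle, none was called, 8 were lower and 3 higher at an adjusted p below 0.01, and the median log2 fold change was -0.26, against -0.01 over all genes. Of all genes 11.2% were lower and 12.1% higher at that threshold, and 33.4% of those above the median passed in either direction. The lowest was IDH3A, a subunit of NAD-dependent isocitrate dehydrogenase, at -0.84 (adjusted p = 1.22e-04 from limma), and the highest SUCLG2, a subunit of succinyl-CoA ligase, at 0.87 (adjusted p = 1.09e-04). The pyruvate dehydrogenase genes PDHA1 and DLAT were lower at -0.54 and -0.51 and PDHB was higher at 0.34. Among 7 measured pentose phosphate genes, H6PD, which acts in the endoplasmic reticulum, was called higher at 1.88 (adjusted p = 2.39e-06) and the other 6 did not pass. Among 19 further genes of glucose and lactate transport, glycolysis and pyruvate control, PDK2 was called higher at 1.20 (limma adjusted p = 4.90e-05). Another 2 fell under 2-fold, TIGAR at -0.72 and BPGM at -0.39. The called share of all genes was 5.64%. Of these 19, 2 lay among the lowest 20% of probe sets in at least 1 line. Unlike PDK1 and PDK3, PDK2 thus passed the test and rose, and the difference between these genes was not tested.

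**Figure D5:**
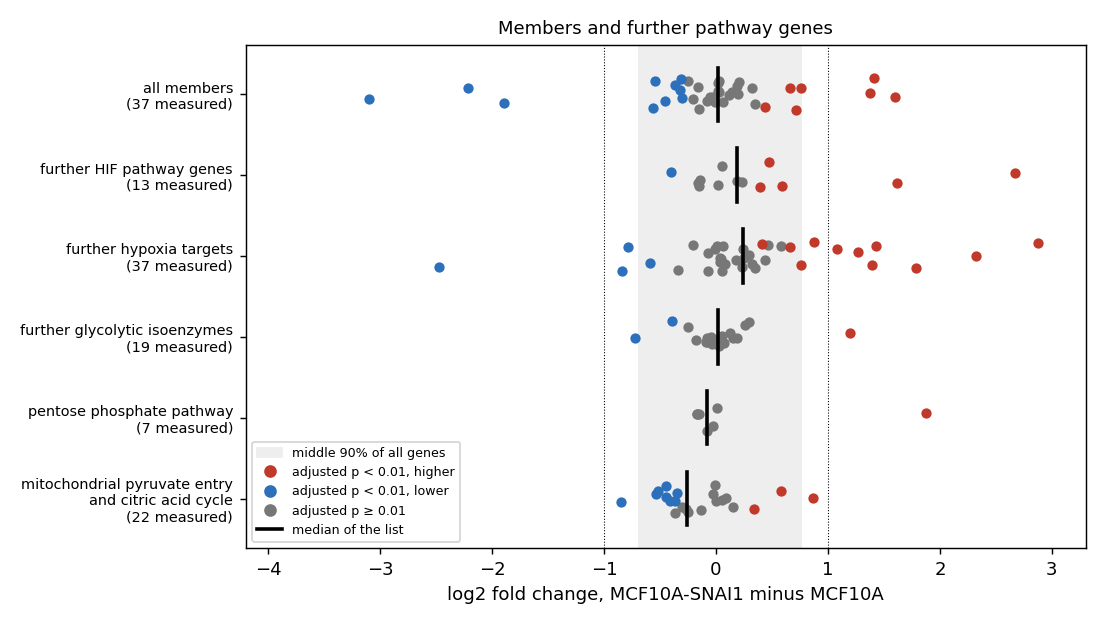
Log2 fold change (MCF10A-SNAI1 minus MCF10A, x axis) of the 37 measured members and of the measured genes of 5 further lists, each point a gene and each black bar the median of its list. The grey band holds the middle 90% of all 18417 genes, from -0.69 to 0.76, and the dotted lines mark a 2-fold change. Red and blue mark an adjusted p below 0.01. Most genes of every list lie within the dotted lines, and 7 hypoxia targets lie beyond the right one.

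The nearest 5 measured genes on each side of a called member were read for changes that cover a stretch of chromosome. Around EPAS1 on chromosome 2, none of 10 neighbours had an adjusted p below 0.01, and their log2 fold changes lay between -0.31 and 0.31. Around P4HA1 on chromosome 10, 5 of 10 were higher and none lower, with a median of 0.45 and a highest value of 1.87. Around ALDOC on chromosome 17, 4 of 10 were lower and none higher, down to -1.95, although the median was -0.12. Around HIF1A 3 were higher and 1 lower, around BNIP3L 1 was higher and 1 lower, and around NDRG1 1 was lower. By the same threshold, 12.1% of all genes rose and 11.2% fell. Of the genes brighter than the median of all probe sets, 33.4% passed in either direction. No test set the neighbour counts against these shares. DNA copy number was not measured, and the part of neighbouring changes in those of P4HA1 and ALDOC was not tested.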

How the data were processed

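Total RNA of 3 MCF10A and 3 MCF10A-SNAI1 arrays (Affymetrix HuGene-1_0-st-v1) was compared. The deposited table holds the authors' normalized log2 value of 33297 probe sets on each array, with no detection calls. Their article gives GC RMA in GeneSpring as the method, while GCOS, Expression Console 1.1 and MAS5 stand in the processing notes of the submitters. Which one made these values is unresolved, so background correction could not be varied. The number of arrays limits the precision.

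The values were kept as deposited and fitted in R 4.3.3 with limma 3.58.1 (lmFit, eBayes) on all probe sets, with Benjamini-Hochberg adjustment over all of them. Standard errors and 95% intervals are moderated ones, and intervals are not adjusted for multiple genes. Genes were named from the 19460 probe sets with 1 symbol (1754 had several, 12083 were unnamed), by the brightest probe set. Every measured member is named, called members with each array, and of further lists the called genes of largest change, at most 4 per direction. HIF3A, IDH3A, SUCLG2, PDHA1, DLAT, PDHB, TIGAR, BPGM, CD68 and the other markers are outside that rule, chosen with their values known. Members, lists, pairs and motifs were chosen with earlier results of these data known. Probe sets of abundant glycolytic genes may also read processed copies elsewhere in the genome. Promoter windows end at the annotated start, and the 50 bases after it were left out. A planned comparison of protein sequences was not made. The fit was tested on simulated data. An adjusted p below 0.01 was reached by 13.4% of simulated log2 changes of 0.5, 79.1% of 1.5 and 100% of 3. Far fewer probe sets carried a change there than passed here, so these shares do not give the power on the arrays.

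The 15 alternatives were another normalization (quantile, or centring on the median), removal of dim probe sets (the lowest 20% or below the median), a fit blocked on replicate number, each of the 6 arrays left out, another moderation (trended or robust), the methods' t-test and averaging a gene's probe sets.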

Additional observations from a re-analysis of the deposited data

How the results depend on the processing

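The 6 called members were called under every alternative, those that leave out 1 array included. Over all settings, HIF1A lay between 1.39 and 1.46 on the log2 scale, EPAS1 between -1.91 and -1.88 and ALDOC between -3.18 and -3.01. The number of members lower at an adjusted p below 0.01, 10 as reported, was 5 with the replicate block and 5 to 6 without 1 array, where fewer residual degrees of freedom remain. The replicate block changed no call of a member. Over all genes, an adjusted p below 0.01 was reached by 1459 higher and 1333 lower genes in the methods' t-test, against 2220 and 2059 with limma. Same-numbered arrays had correlations of their deviations of 0.115, 0.122 and -0.00618, and arrays of different numbers had correlations between -0.134 and 0.034. The values of numbers 1 and 2 were above that range. The main fit did not take the numbers as pairs, and whether same-numbered arrays were handled together was not tested. Of the values of single members, 549 kept their sign and their side of the call thresholds. The exceptions were FBP1, which ranged from -0.055 to 0.088 without 1 array and was below 0 without MCF10A replicate 2, and PKM, which ranged from -0.034 to 0.015 without 1 array, both far from the threshold. FBP1 could not be tested with probe sets below the median removed. Which program made the table, and what its background correction did to dim genes, limits the values of dim genes such as FBP1.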

Other observations

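The genes PGAM1 and EGLN2 could be read only through probe sets that another gene shares. Of 5 probe sets annotated to both PGAM1 and PGAM4, log2 fold changes lay between -0.23 and -0.21, and 2 of the 5 held identical values on all arrays. The probe set shared by EGLN2 and its readthrough with RAB4B was at 7.18 ± 0.061 and 7.27 ± 0.13 (SD, n = 3 arrays each), a log2 fold change of 0.09 with a 95% interval from -0.11 to 0.28.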
